A study of Mus musculus with 3 samples.

Results

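The tankyrase genes and the genes of the beta-catenin destruction complex were followed in mouse EpiSCs (epiblast stem cells), a pluripotent cell type close to the postimplantation epiblast. The set was given as a list of 10 genes: the tankyrase genes Tnks and Tnks2, the scaffold genes Axin1, Apc and Amer1, the kinase genes Gsk3a, Gsk3b and Csnk1a1, the substrate gene Ctnnb1 and the ubiquitin ligase gene Btrc. All 10 were found among the 17209 genes that at least 1 library listed, and all 10 passed the filter on low values, a 3-library mean of 1 CPM (TMM-scaled counts relative to library size), as did 12955 genes in total. The cells were of strain 129 at passage 1 and had been grown on gelatin in serum with both IWR1 and Y27632 (labelled Y27). The NT library came from cells after an overnight withdrawal of both compounds, whereas the IWR1 and Y27 libraries came from cells given 12 h of 2 µM IWR1 or, as labelled, 0.5 µM Y27. The Y27 dose is low for this compound and its unit could not be checked. The labels do not say whether the treated cells first went through a withdrawal. Each group was 1 library of a whole culture, so no test between groups was possible and no difference below has a replicate check. The ranges printed after folds and shares are 95% intervals that cover counting error alone.

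The destruction complex keeps beta-catenin low in the absence of a Wnt signal. Axin and Apc hold beta-catenin, casein kinase 1 alpha and glycogen synthase kinase 3 phosphorylate it in turn, and the F-box protein encoded by Btrc then brings it to a ubiquitin ligase. Tankyrases attach poly(ADP-ribose) to Axin, which marks Axin for degradation, and IWR1 blocks that step, so that the compound acts on a protein and the tables read only its transcripts. Y27632 is not known as a tankyrase inhibitor.

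The stretches of sequence through which the complex works are shown because they join the genes described here. The Ctnnb1 stretch lies in exon 3 at chr9:120950596-120950652 (GRCm38, plus strand, codons 30 to 48) and encodes the part of beta-catenin that the kinases mark. Its capitals are codons 33, 37 and 41, which encode the residues phosphorylated by glycogen synthase kinase 3, and codon 45, which encodes the priming residue of casein kinase 1. The Axin1 stretch lies in exon 2 at chr17:26142750-26142794 (GRCm38, plus strand, codons 23 to 37) and encodes a tankyrase-binding peptide. Its capitals are codons 27 and 32, the arginine and glycine codons of that peptide. Both are reference sequences of GENCODE M21, read 5′ to 3′.
Ctnnb1 codons 30 to 48: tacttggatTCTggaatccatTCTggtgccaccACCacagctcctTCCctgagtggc
Axin1 codons 23 to 37: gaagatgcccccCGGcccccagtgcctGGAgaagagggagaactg

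All 10 genes were transcribed in every library, over a wide range of levels per length. Levels in this paragraph are the deposited FPKM values (estimated reads relative to transcript length and library size). Ctnnb1, the substrate, stood first at 232, 247 and 246 FPKM in NT, IWR1 and Y27, above 98.1% of the genes listed in NT. Csnk1a1 followed at 95.1, 109 and 104 FPKM, and its range overlapped that of Tnks2 (76.3, 97.8 and 101 FPKM). Gsk3a came next at 63.0, 53.4 and 51.0 FPKM, and Axin1 at 29.9, 29.4 and 26.7 FPKM. Each of these last 2 was set apart from its neighbours in all 3 libraries. The lower group held Tnks, Gsk3b, Apc and Btrc, whose ranges overlapped from one to the next. Amer1 was last at 5.32, 7.21 and 6.28 FPKM, above 47.2% of the genes listed in NT. Of the 9 pairs of neighbours in this order, 5 did not overlap. Ctnnb1 transcript therefore stood well above each scaffold: it was 7.76, 8.42 and 9.22 times Axin1 in NT, IWR1 and Y27, and 33.1, 22.4 and 13.9 times Apc.

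**Figure D1:**
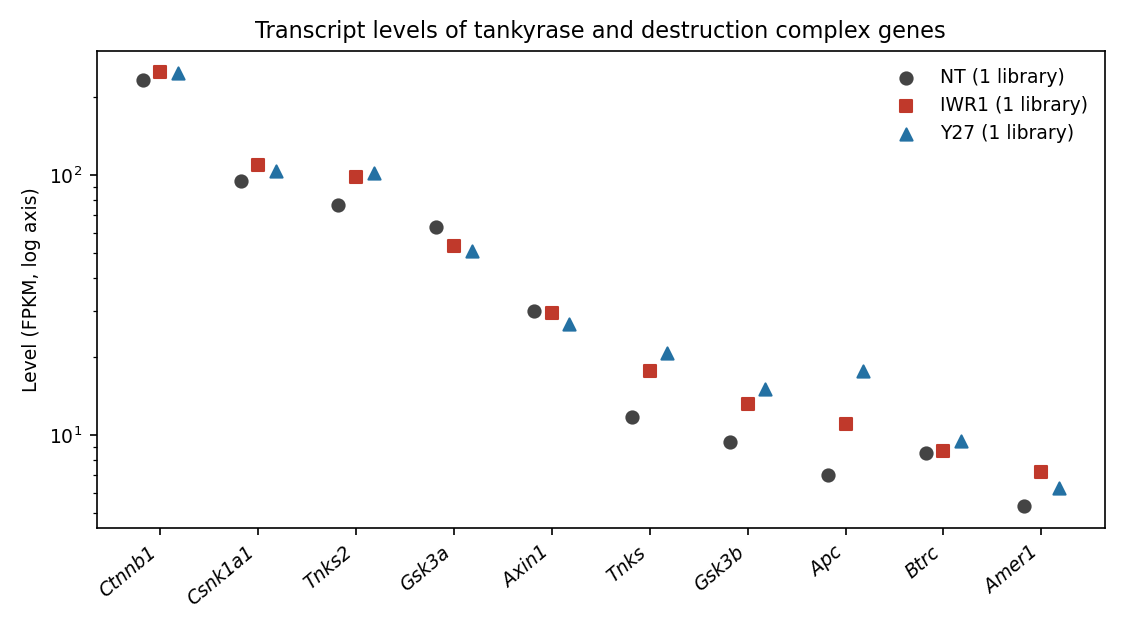
Level of each gene in FPKM (log axis) in the NT, IWR1 and Y27 libraries, 1 point per library, ordered by the mean level. Ctnnb1 lies above 230 FPKM in every library, and the points of Apc spread from 7.01 in NT to 17.7 in Y27.

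The first comparison asked how the transcripts of the IWR1 target and of the complex differed between cells under IWR1 and cells without either compound, and the second asked the same for Y27. Both share the NT library, so they are set side by side and not counted as separate evidence. A gene is counted below where it was at least 25% higher or, by the same fold in the other direction, 20% lower. In IWR1, 5 of the 10 genes were higher than in NT by that measure (Tnks, Tnks2, Apc, Gsk3b and Amer1) and 0 lower. Over all 12955 genes the shares were 23% higher and 16.2% lower. In Y27, 4 were at least 25% higher (Tnks, Tnks2, Apc and Gsk3b) and 1 lower (Gsk3a), against 25.5% and 19% of all genes. At 2-fold the counts were 0 in IWR1, where 2.28% of all genes were higher and 2.25% lower, and 1 in Y27, Apc, where 5.58% were higher and 1.34% lower. The median log2 difference of the 10 genes was 0.25 in IWR1 and 0.13 in Y27, against 0.00 and -0.02 over all genes. A log2 difference is log2((CPM + 1)/(CPM + 1)), and folds are ratios of CPM.

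The tankyrase genes were both higher in the treated libraries. Tnks, which encodes tankyrase 1, was at 77.8 CPM in NT, 115 CPM in IWR1 and 132 CPM in Y27. It was lowest in NT, 1.48-fold higher in IWR1 (1.31 to 1.67) and 1.69-fold higher in Y27 (1.504 to 1.91). Tnks2, which encodes tankyrase 2, was at 513, 645 and 652 CPM. The treated libraries nearly coincided for Tnks2, 1.26-fold (1.20 to 1.32) and 1.27-fold (1.21 to 1.34) above NT. Between the treated libraries, Tnks was 1.14-fold lower in IWR1 than in Y27 (1.03 to 1.27), while the Tnks2 ratio of 0.989 had an interval of 0.945 to 1.04. Both were thus above NT in each treated library as measured, but with the trend over all genes on transcript length and GC content removed the log2 difference of Tnks2 was 0.00 in IWR1 and -0.15 in Y27.

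Among the scaffolds, Apc showed the widest spread of the 10 genes and Axin1 a narrow one. Apc, a large scaffold and tumour suppressor, was at 90.4 CPM in NT, 140 CPM in IWR1 and 218 CPM in Y27. Its order was NT, IWR1, Y27, with 1.55-fold (1.38 to 1.73) and 2.41-fold (2.17 to 2.68) over NT, and IWR1 was 1.56-fold below Y27 (1.43 to 1.71). Its Y27 difference exceeded that of 97.5% of all genes compared, and of 89.5% with the trend on length and GC content removed. Axin1, the scaffold whose protein IWR1 preserves, was at 113, 110 and 98.2 CPM. The IWR1 value lay within counting error of NT, with a ratio of 0.967 (0.864 to 1.08), and Y27 was the lowest library, 1.15-fold below NT (1.03 to 1.29). With the trend removed, its log2 difference in Y27 went from -0.20 to -0.05. Its listed length, a mean over 2 RefSeq transcripts, was 3685, 3692 and 3739 bases in NT, IWR1 and Y27. Amer1, a membrane-associated Apc partner on the X chromosome, was at 46.6, 62.0 and 52.7 CPM, highest in IWR1 at 1.33-fold over NT (1.13 to 1.57), and its Y27 ratio of 1.13 had an interval of 0.955 to 1.34. Its counts were partly fractional, as were those of Gsk3b, so part of their reads may be shared with other genes. The other 8 genes had whole counts in every library.

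The kinase genes did not share a direction. Gsk3a, which encodes glycogen synthase kinase 3 alpha, was at 146 CPM in NT, 122 CPM in IWR1 and 114 CPM in Y27, 1.20-fold (1.09 to 1.33) and 1.29-fold (1.16 to 1.43) lower than in NT. Gsk3b, which encodes the beta form, was at 80.9, 111 and 123 CPM, 1.37-fold (1.21 to 1.55) and 1.52-fold (1.35 to 1.72) higher. NT was the highest library for Gsk3a and the lowest for Gsk3b. Csnk1a1, the priming kinase, was at 195, 220 and 204 CPM, with ratios of 1.13 in IWR1 (1.04 to 1.22) and 1.04 in Y27 (0.959 to 1.13).

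The transcripts of the substrate and of its ligase differed little. Ctnnb1 was at 868, 909 and 881 CPM, with ratios of 1.05 (1.01 to 1.09) and 1.02 (0.976 to 1.06), on 4905 to 5088 reads. Btrc, the F-box protein gene, was at 55.6, 55.4 and 59.1 CPM, with ratios of 0.997 (0.849 to 1.17) and 1.06 (0.909 to 1.246) on 310 to 330 reads. In IWR1, the intervals of 7 genes lay above 1 and that of 1 gene, Gsk3a, below it, against 20.3% and 19.1% of all genes. In Y27, 4 lay above and 2 below (Axin1 and Gsk3a), against 21.9% and 22.9%. Whether an interval excludes 1 depends on read number as well as on the ratio. Reads ran from 263 (Amer1 in NT) to 5088 (Ctnnb1 in IWR1) here, while the filter admitted genes at a mean of 1 CPM. The counts are therefore not read as an excess of the set. These intervals compare libraries, not conditions.

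**Figure D2:**
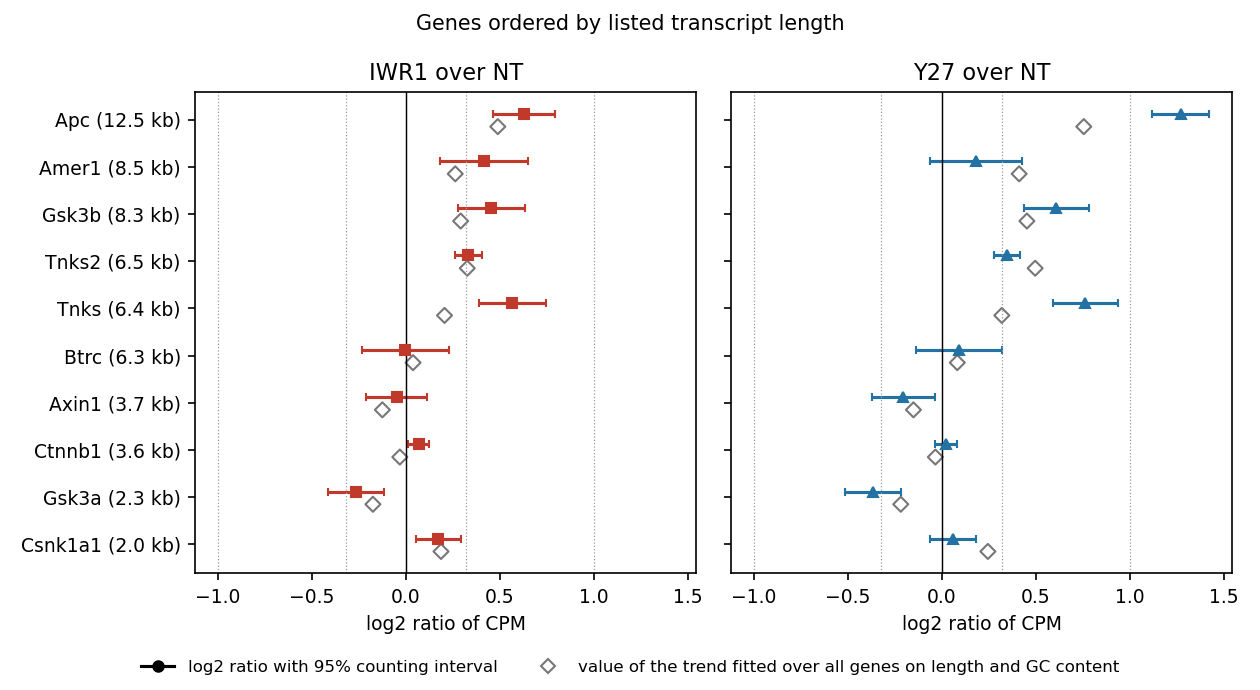
Log2 ratio of CPM of each gene for IWR1 over NT (left) and Y27 over NT (right), with bars for the 95% counting interval, dotted lines at 25% higher, 20% lower and 2-fold, and open diamonds for the trend fitted over all genes on transcript length and GC content. Apc in Y27 is the one ratio past 2-fold, and the genes with transcripts over 6 kb other than Btrc lie to the right of those under 4 kb in IWR1.

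In a direct comparison of the treated libraries, 0 genes of the set stood at least 25% above Y27 in IWR1 and 1, Apc, at least 20% below, against 13.9% and 18.3% of all genes. The set's median log2 difference was 0.01, against 0.00 over all genes, and 0 genes passed 2-fold, where 1.38% of all genes were higher and 2.9% lower. The interval lay above 1 for Amer1 alone, at 1.18-fold (1.00 to 1.38), and below 1 for Tnks and Apc, against 16.3% and 16.1% of all genes. These shares, too, depend on read number.

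The differences from NT went with transcript length and GC content, in the set as over all genes. Apc is the longest, at 12453 bases, followed by Amer1 (8476) and Gsk3b (8298), while Gsk3a (2276) and Csnk1a1 (2013) are the shortest. Over the 10 genes Spearman's rho between length and log2 difference was 0.76 in IWR1 and 0.81 in Y27, and between GC content and log2 difference -0.71 and -0.64. The points share the NT library, and length and GC content vary together. Over all 12955 genes the values were 0.26 and 0.34 for length and -0.43 and -0.51 for GC content. Of the 553 genes with transcripts of 8 kb or more, 50.5% stood at least 25% above NT in IWR1 and 60.2% in Y27, and 20.6% were at least 2-fold higher in Y27. Of the 3709 genes under 2 kb, 12.9% and 13.1% did. The median log2 difference of the long class, which holds Apc, Gsk3b and Amer1, was 0.33 in IWR1 and 0.48 in Y27. In the class of 6 to 8 kb, which holds Tnks, Tnks2 and Btrc, it was 0.16 and 0.24 over 863 genes.

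Removal of the trend on length and GC content, fitted over all genes, left fewer genes of the set past the threshold. In IWR1 the 5 higher genes became 1, Tnks, and 0 were lower, against 16.5% and 14.8% of all genes. In Y27 the 4 higher genes became 2, Tnks and Apc, and the 1 lower gene became 0, against 17.5% and 15.9%. At 2-fold, 0 genes of the set remained in either direction, against 1.32% higher and 2.06% lower in IWR1 and 1.58% and 1.16% in Y27. The medians became 0.089 and -0.02. The log2 difference of Tnks went from 0.56 to 0.35 in IWR1 and from 0.75 to 0.43 in Y27, on a transcript of 6444 bases with 46.8% GC. Tnks2, of nearly the same length (6503 bases, 44.5% GC), went to 0.00 and -0.15. Apc went to 0.13 and 0.51, Gsk3b to 0.16 and 0.15, and Gsk3a to -0.09 and -0.14. Axin1 went from -0.05 and -0.20 to 0.08 and -0.05, and Csnk1a1 from 0.17 and 0.06 to -0.01 and -0.18. Amer1 went to 0.14 in IWR1 and to -0.24 in Y27, and between the treated libraries it was then the 1 gene at least 25% higher in IWR1, at a log2 difference of 0.35, and Apc, at -0.40, the 1 lower, against 13.2% and 16.8% of all genes. At 2-fold that comparison held 0 genes of the set, against 1.3% and 2.8%. How far length, GC content or a treatment sets each difference was not tested.

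**Figure D3:**
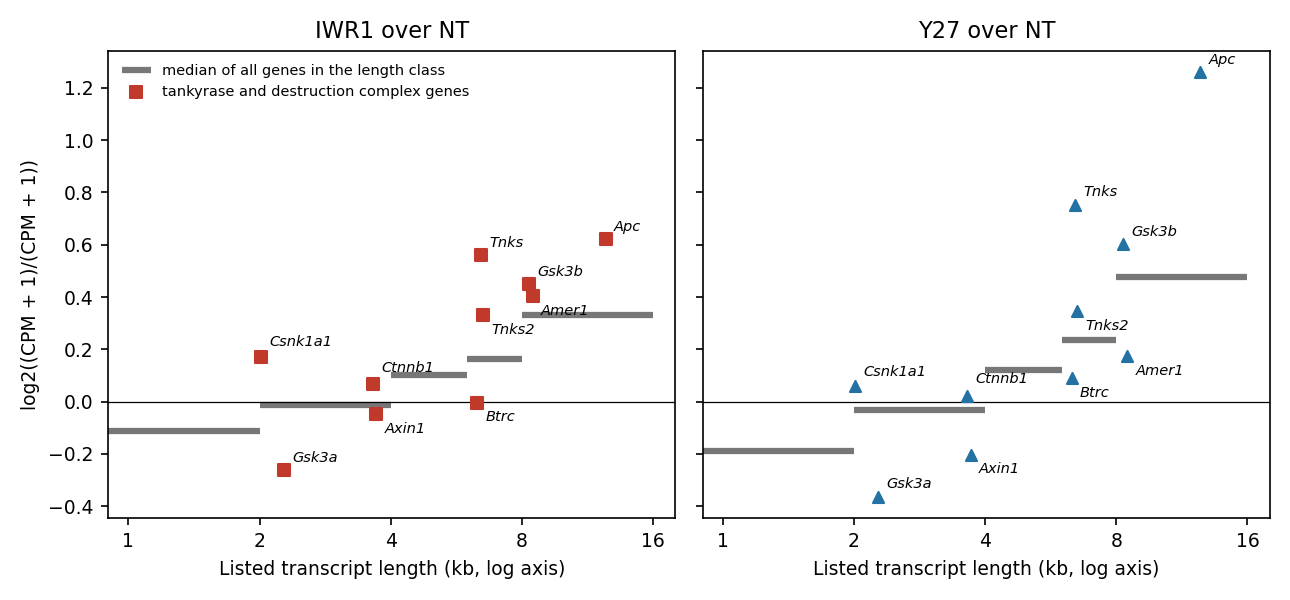
Log2 difference of each gene against its listed transcript length in kb (log axis) for IWR1 over NT (left) and Y27 over NT (right), with grey bars for the median of all genes in each length class. The grey bars climb from -0.11 to 0.33 in IWR1 and from -0.19 to 0.48 in Y27, and Ctnnb1, Csnk1a1, Tnks, Tnks2, Apc and Gsk3b lie above the bar of their class in both panels.

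Paralogs contributed unequally to their summed transcript. The shares differed between libraries, but some intervals overlapped, those of Btrc in every pair of libraries. Shares are of summed FPKM. Tnks2 made up 86.7% of tankyrase transcript in NT (85.5 to 87.9), 84.7% in IWR1 (83.6 to 85.8) and 83.0% in Y27 (81.9 to 84.1), and the sum of both genes was 88.0, 115 and 122 FPKM. That sum carries the length and GC trend, without which the log2 difference of Tnks2 was 0.00 in IWR1 and -0.15 in Y27. Gsk3b made up 13.02% of Gsk3 transcript in NT (11.8 to 14.4), 19.8% in IWR1 (18.1 to 21.6) and 22.7% in Y27 (20.9 to 24.7). The genes differed from NT in opposite directions, and their sum was 72.4, 66.5 and 66.0 FPKM. These shares carry the length and GC trend, without which neither gene was past the threshold in either comparison. Btrc made up 16.9% (15.1 to 18.7), 17.4% (15.6 to 19.3) and 20.1% (18.1 to 22.3) of its sum with Fbxw11, which encodes the other F-box protein that binds beta-catenin.

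Axin2, the second Axin gene, is known as a Wnt target gene. It was at 39.2, 9.13 and 39.6 FPKM in NT, IWR1 and Y27, so IWR1 alone stood low. Beside Axin1 at 29.9, 29.4 and 26.7 FPKM, summed Axin transcript was 69.1 FPKM in NT, 38.5 FPKM in IWR1 and 66.2 FPKM in Y27, 1.79-fold lower in IWR1 than in NT. Axin2 made up 56.8% (54.3 to 59.2), 23.7% (20.96 to 26.6) and 59.8% (57.2 to 62.3) of it. Ctnnb1 transcript was 3.36 times summed Axin transcript in NT, 6.42 times in IWR1 and 3.71 times in Y27. The protein of neither was measured here.

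**Figure D4:**
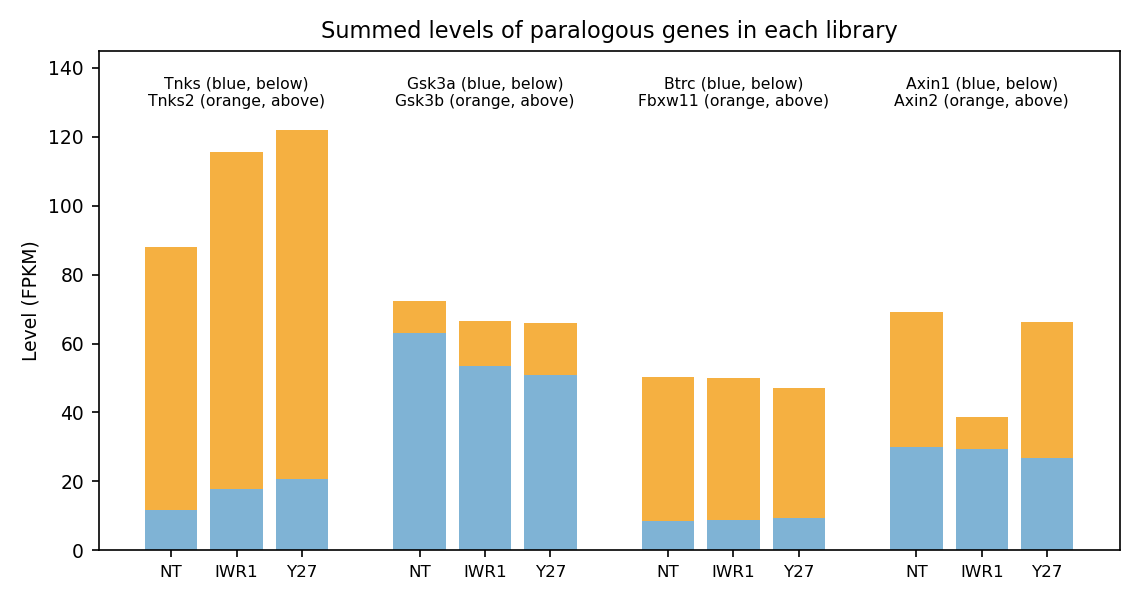
Summed FPKM of 4 pairs of paralogs in each library, with the contribution of each gene stacked. The tankyrase bars reach 88.0 FPKM in NT and 122 FPKM in Y27, and the Axin bar of IWR1 is short because its Axin2 part is 9.13 FPKM.

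The upstream sequences of Gsk3a and Gsk3b are shown because these 2 genes encode kinases of the same step and stood on opposite sides of NT, although with the trend removed neither was past the threshold. They are the 250 bases before the start from RefSeq (GRCm38.p6), which had entries for 4 of the 10 genes (Tnks2, Ctnnb1, Gsk3a and Gsk3b). Gsk3a lies on the minus strand at chr7:25237852-25238101 and Gsk3b on the plus strand at chr16:38088751-38089000. Capitals mark CTTTGA, the core of sites bound by TCF/LEF factors, or its reverse complement TCAAAG.
Gsk3a: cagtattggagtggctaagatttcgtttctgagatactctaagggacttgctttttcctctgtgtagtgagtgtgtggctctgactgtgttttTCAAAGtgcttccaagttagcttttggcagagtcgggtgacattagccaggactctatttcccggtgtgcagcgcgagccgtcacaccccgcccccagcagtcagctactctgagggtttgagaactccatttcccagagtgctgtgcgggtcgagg
Gsk3b: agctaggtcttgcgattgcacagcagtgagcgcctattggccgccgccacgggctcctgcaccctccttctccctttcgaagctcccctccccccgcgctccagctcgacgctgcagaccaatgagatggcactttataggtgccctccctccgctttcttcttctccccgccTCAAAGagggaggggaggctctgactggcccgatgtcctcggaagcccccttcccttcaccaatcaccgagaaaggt
Each window held 1 match, a match that 13.8% of all 32851 promoter windows of that length held on either strand. The windows of Tnks2 and Ctnnb1 held 0, as did those of Axin2 and Fbxw11, which are outside the 10 genes. The Gsk3a window had 52.0% GC and 9 CpG sites, and the Gsk3b window 62.0% GC and 15.

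The genes around the complex were read from 7 lists of its paralogs, ligase, phosphatase and partners. Tankyrase regulators and binding partners had the highest median, 0.30 in IWR1 and 0.28 in Y27 over 13 genes, with 6 at least 25% higher in each, 2 at least 20% lower in IWR1 and 0 in Y27. The shares of all genes were 23% higher and 16.2% lower in IWR1, and 25.5% and 19% in Y27, and the other lists are read against the same shares. Counts of Usp34, Terf1, Amot and Amotl1 were partly fractional. Usp34, which encodes an Axin deubiquitinase and is 12200 bases long, was at 138 CPM in NT, 228 CPM in IWR1 and 281 CPM in Y27. Its log2 differences of 0.72 and 1.02 went to 0.03 and -0.04 once the trend was removed. Terf1, a telomere protein gene whose product tankyrase modifies, was at 69.0, 107 and 135 CPM on a transcript of 2254 bases, and its log2 differences went from 0.63 to 0.38 and from 0.96 to 0.60 with the trend removed. Lnpep, which encodes an aminopeptidase that binds tankyrase, was 1.30-fold (1.05 to 1.61) and 1.73-fold (1.42 to 2.12) higher, but its log2 differences of 0.36 and 0.77 turned to -0.17 and -0.05 with the trend removed. The angiomotin genes, whose proteins are tankyrase substrates, did not share a direction in IWR1. Amotl1 was at 75.9, 87.4 and 71.2 CPM, 1.15-fold higher in IWR1 (1.01 to 1.31), whereas Amotl2 was at 741, 298 and 595 CPM and Amot at 214, 134 and 259 CPM. The list's medians were 0.03 and -0.03 with the trend removed.

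Among paralogs and kinase partners of the complex, Axin2 was the 1 of 12 past 2-fold in IWR1, and 0 passed it in Y27, against 2.28% of all genes higher and 2.25% lower in IWR1 and 5.58% and 1.34% in Y27. Csnk1g3, a casein kinase 1 gamma gene, was 1.53-fold (1.30 to 1.81) and 1.27-fold (1.07 to 1.51) higher, but with the trend removed its log2 differences of 0.60 and 0.33 went to 0.28 and -0.14. Csnk1e was 1.21-fold lower in Y27 (1.08 to 1.34), and the low transcript Apc2 was at 5.31, 8.93 and 5.38 CPM. Frat2, which encodes a Gsk3-binding protein, was at 11.15, 7.91 and 7.26 CPM, and its interval reached 1 in IWR1 (1.42-fold lower, 0.9496 to 2.13). Counts of Csnk1e and Frat2 were partly fractional. The ligase list had medians of -0.08 and -0.16 over 8 genes, with Cul1, the cullin of the Btrc ligase, at 141, 187 and 175 CPM. Its log2 differences of 0.40 and 0.31 went to 0.19 and 0.00 with the trend removed. The ubiquitin gene Ubb, with partly fractional counts, was 1.28-fold lower in IWR1 and 1.29-fold lower in Y27 (1.26 to 1.32). The 10 subunit genes of protein phosphatase 2A, which can remove the kinases' phosphates, had medians of -0.19 and -0.17. In that list 0 genes passed the threshold in IWR1, where Ppp2r5d was 1.21-fold and the scaffold gene Ppp2r1a 1.18-fold lower, and 3 were lower in Y27: the catalytic genes Ppp2ca (1.29-fold, 1.22 to 1.37) and Ppp2cb (1.41-fold, 1.28 to 1.55) and the regulatory gene Ppp2r5b (1.46-fold, 1.18 to 1.80). Of all genes, 16.2% were lower in IWR1 and 19% in Y27. Dishevelled and other DIX domain genes had medians of -0.19 and -0.07 over 5 genes, which went to -0.07 and 0.08 with the trend removed. Dvl2 was at 152, 125 and 125 CPM, Dixdc1 at 10.97, 9.47 and 15.2 CPM, Dvl1 at 61.4, 53.6 and 58.2 CPM and Ccdc88c at 88.3, 85.4 and 81.9 CPM. Of the 5 genes, only Dvl2 had intervals that excluded 1 against NT.

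Of the 13 other genes of the poly(ADP-ribose) polymerase family and Parg, 4 were at least 25% higher in IWR1 and 5 in Y27, against 23% and 25.5% of all genes, and 1, Parp10, was at least 20% lower in IWR1, with medians of 0.17 and 0.04. Parp14 was at 27.6, 47.9 and 51.6 CPM and its log2 differences went from 0.77 to 0.52 and from 0.88 to 0.49 with the trend removed. Parg, which encodes the enzyme that removes poly(ADP-ribose), was 1.37-fold (1.19 to 1.58) and 1.40-fold (1.22 to 1.61) higher, and Tiparp 1.43-fold (1.15 to 1.77) and 1.28-fold (1.03 to 1.599) higher. With the trend removed, the log2 differences of Parg were 0.26 and 0.20, and those of Tiparp went from 0.50 and 0.34 to 0.02 and -0.37. Parp6, at 7.96, 11.08 and 10.57 CPM, had intervals that reached 1. The list of catenins and junction partners of beta-catenin, which also held Ctnnbip1, had medians of -0.20 in IWR1 and -0.40 in Y27 over 7 genes. These lay below the 0.07 and 0.02 of Ctnnb1 itself. Jup, which encodes plakoglobin, a close relative of beta-catenin, was at 275, 156 and 167 CPM, 1.76-fold (1.62 to 1.92) and 1.65-fold (1.52 to 1.79) lower. Cdh1, the E-cadherin gene, was at 430, 503 and 295 CPM, lowest in Y27, and Cdh2, the N-cadherin gene, at 197, 116.5 and 202 CPM, lowest in IWR1. Ctnnbip1, which encodes an inhibitor of beta-catenin, was at 35.7, 28.4 and 31.0 CPM. Ctnna1, which encodes alpha-catenin, was 1.32-fold lower in Y27 (1.26 to 1.39).

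**Figure D5:**
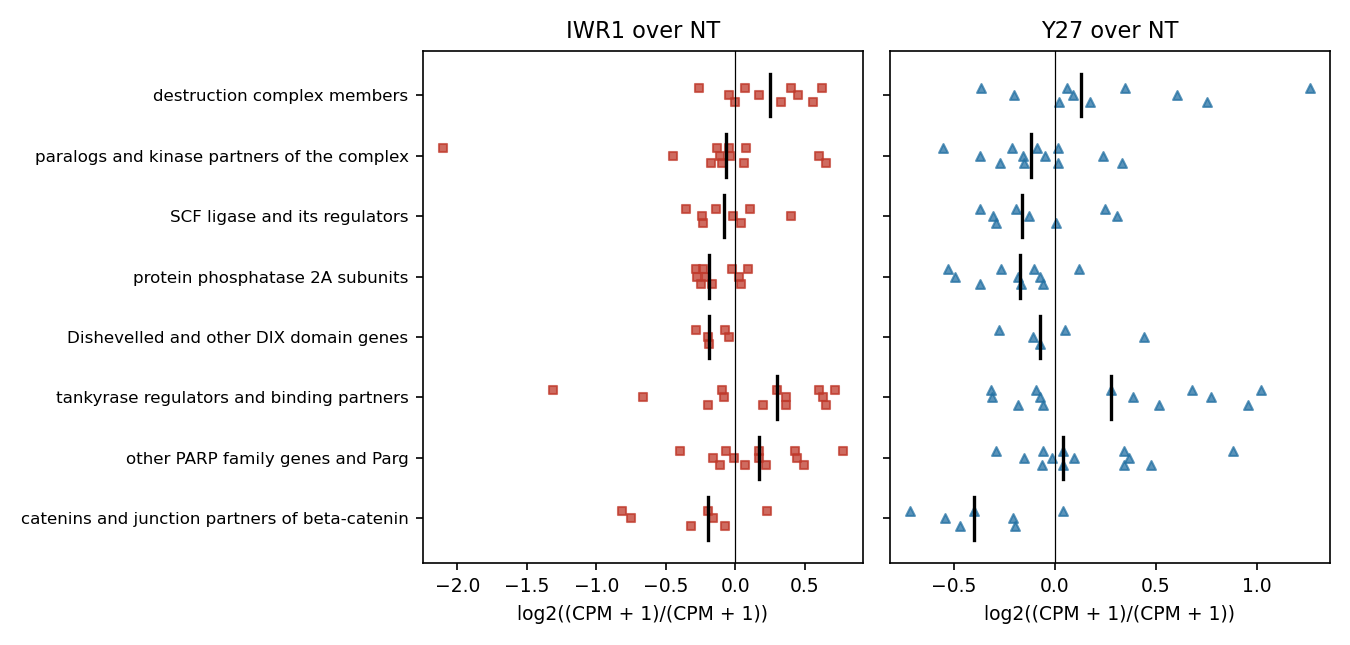
Log2 differences of the genes of each list for IWR1 over NT (left) and Y27 over NT (right), 1 point per gene above the level filter, with a black bar for the list's median. The bar of the tankyrase regulators lies at 0.30 and 0.28, and that of the catenins and junction partners at -0.20 and -0.40. The lone point near -2.10 in IWR1 is Axin2.

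Apc had the largest difference of the set in both comparisons, and the genes nearest to it by the Euclidean distance between pairs of log2 differences were Nbea (0.04), Zbed6 (0.04) and Dmxl1 (0.05), among genes with whole counts and at least 20 CPM. The measure rests on 3 libraries, and 28 of all genes compared lay within 0.1 of Apc. The transcripts of Nbea and Dmxl1 are 10998 and 12211 bases long, close to that of Apc, and that of Zbed6 is 5007.

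The libraries summed to between 5459332 and 5767550 estimated counts. All 8 EpiSC markers were detected in each, at 2469 to 3463 CPM in all. Summed primitive streak markers were at 1889, 463 and 1900 CPM in NT, IWR1 and Y27 (6 of 6 genes in the tables, with Mixl1 at 0 in IWR1). Fibroblast markers were at 121, 73.6 and 62.0 CPM (8 of 9, with Postn at 0 in IWR1 and Dcn at 0 in Y27). Neural markers were at 298, 330 and 205 CPM (6 of 6, with Pax6 at 0 in NT and IWR1 and Neurog2 at 0 in NT and Y27), and endoderm markers at 17.0, 13.2 and 12.5 CPM (3 of 5). Single genes made up the largest part of such sums. T was at 1688, 364 and 1652 CPM, Nes at 240, 263 and 155 CPM and Col1a1 at 82.3, 54.7 and 31.0 CPM. Not every marker followed its sum. The neural marker Map2 was at 16.5, 21.1 and 30.6 CPM, and the fibroblast marker Pdgfra at 4.78, 1.61 and 5.73 CPM. The nuclear-retained RNAs Malat1, Neat1 and Meg3 summed to 347, 778 and 1050 CPM. Apc, Tnks, Tnks2 and Gsk3b had the same order of libraries, though the treated libraries nearly coincided for Tnks2. Gsk3a and Axin1 had the opposite order, with the IWR1 value of Axin1 within counting error of NT. Ctnnb1, Csnk1a1, Amer1 and Btrc had neither order. These orders are of the values as measured. With the length and GC trend removed, the log2 differences in IWR1 and Y27 were 0.00 and -0.15 for Tnks2 and 0.16 and 0.15 for Gsk3b. Those of Axin1 were 0.08 and -0.05, and those of Csnk1a1 -0.01 and -0.18. In whole cultures, fewer cells of a type and less RNA per cell cannot be told apart, and the part of these markers in the differences above was not tested.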

How the data were processed

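Gene tables of 3 RNA-seq libraries, 1 per group, were used, with groups taken from the labels. Columns of transcript length, expected count and FPKM are given for Entrez genes, per the file headers. The deposited expected counts estimate a gene's reads and are not normalized, and the deposited FPKM values relate them to length and library size. The submitters' processing notes name Bowtie 0.12.2 and mm8. The sources used here do not name the counting tool. Recomputed FPKM came within 2% of the deposited value for 93.8% to 94.0% of each library's genes above 50 counts.

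A gene absent from a table was taken as 0. Of the identifiers, 99.7% matched a symbol. Counts were scaled by TMM (edgeR 4.0.16 in R 4.3.3) and compared with a pseudocount of 1 CPM. Counts were rounded to whole numbers for exact conditional binomial intervals of folds, and exact binomial (Clopper-Pearson) intervals of shares were rescaled to FPKM. The trend was cubic in GC content and log2 length, and its removal kept the median of all genes. GC content was known for 99.5% of genes (GENCODE M21, GRCm38). As those notes name mm8, coordinates of the printed sequences are those of the reference, not of the deposited tables. The 10 genes, the lists, the thresholds of 25% and 2-fold and the alternatives were chosen with earlier results of these data known. Named were all 10 genes, Axin2, and per list up to 3 genes of at least 5 CPM with the largest differences in each comparison. For the gene with the largest difference, the 3 nearest genes were named. 1 gene that this rule names is not reported here. Fbxw11, Amotl1 and Parp10 fall outside the rule and were added after their values were seen. Steps were tested on simulated data. Other steps used scipy 1.17.1, pandas 2.3.3, numpy 2.4.6 and, for plots, matplotlib 3.10.9, under Python 3.11.15.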

Additional observations from a re-analysis of the deposited data

How the results depend on the processing

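Other pseudocounts (0.1 or 5 CPM), other scalings (upper quartile, DESeq2 1.42.0 size factors or library totals), the deposited FPKM, and a level filter of 5 CPM or none left the counts of genes past each threshold within 1.5 times of those reported, for all 3 comparisons. Under them the median lay between 0.21 and 0.28 in IWR1 over NT, between 0.07 and 0.19 in Y27 over NT, and between -0.02 and 0.03 in IWR1 over Y27, where its sign changed. Among single genes, these settings moved Ctnnb1 in Y27 over NT, from 0.02 to between -0.04 and 0.09. The genes past the 25% threshold were not the same under every setting. With upper quartile scaling, Tnks2 fell short of that threshold, at 0.29 in IWR1 over NT and 0.28 in Y27 over NT. Its reported values were 0.33 and 0.35. Gsk3a in Y27 over NT, reported at -0.36, fell short with library totals and with the deposited FPKM, at -0.30 in each. CPM per kilobase in place of FPKM kept the order of levels. Removal of the trends moved the medians and counts, and trends on length alone or GC alone were added after seeing the data. In IWR1 over NT, the median of 0.25 became 0.089 with both trends removed, 0.17 with the length trend alone and 0.12 with the GC trend alone. The 5 genes past the 25% threshold became 1 with both, 1 with length alone and 2 with GC alone. In Y27 over NT, the 5 genes past it in either direction became 2 with both, 2 with length alone and 4 with GC alone. With GC alone the lower gene was Csnk1a1, at -0.33, while Gsk3a was at -0.16. The 1 gene past 2-fold in Y27 over NT became 0 under all 3 removals. In IWR1 over Y27, the 1 past the 25% threshold became 2 with both and 2 with length alone, and stayed 1 with GC alone. Tnks2 in Y27 over NT turned from 0.35 to -0.15 with both removed. The cause was not tested. Leaving out a replicate was not possible with 1 library per group, and counting error was widest for Amer1 and Btrc, which had the fewest reads. No paired analysis was possible because each group had 1 library.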
